A study of Mus musculus with 12 samples.

Results

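The interaction of genotype and pressure overload is the change that transverse aortic constriction (TAC) brought about in hearts of Cd163-/- mice (KO), minus the change it brought about in wild-type (WT) hearts. It was computed for every gene of the count table with all 12 libraries and again with replicate 1 of KO sham left out. All genes are its members, so none was chosen by its value. Of 55357 gene identifiers, 15804 had enough counts to be tested with 12 libraries and 16196 with 11. The 4 groups of 3 libraries were KO TAC, KO sham, WT TAC and WT sham, numbered 1, 3 and 5 after TAC and 1, 2 and 3 after sham. KO mice carried the Cd163 deletion on a C57BL/6J background, for which the labels give no Cre driver or cell type, and WT mice were C57BL/6J. All animals were males operated on at 8 weeks. In TAC the aortic arch was tied over a 27-gauge needle, and sham animals had the same surgery with no tie. The labels do not state how long after surgery the hearts were taken. RNA came from heart tissue without a stated chamber, and the cardiac actin gene Actc1 stood at 2009 CPM (library-scaled counts, defined below) or more in every library.

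TAC narrows the aortic arch, so that the left ventricle must pump against a raised pressure. The rodent heart is known to respond with growth of its muscle cells, re-use of genes of the fetal heart, less fatty acid oxidation and more collagen matrix. CD163 is a receptor of macrophages that takes up haemoglobin bound to haptoglobin, and in the mouse heart it marks long-lived resident macrophages. The interaction asks, for each gene, whether the response to TAC was of another size without CD163. It is given on the log2 scale, with a positive value where the TAC effect was higher in KO than in WT. A gene is said to be called where edgeR's quasi-likelihood test gave an adjusted p under 0.05 over all genes tested. Levels are CPM, counts scaled to a common library total with TMM over the 12 libraries, in the order of the replicate numbers.

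Total counts ran from 14150109 to 22602225 per library. On the first principal component, which held 66.7% of the variance among the 1000 genes of highest variance, KO sham replicate 1 (−44.6) lay among the KO TAC libraries (−45.0 to −40.4). WT TAC replicate 1 (−6.69) lay between them and the other 7 libraries (17.9 to 32.9). Transcripts of the mitochondrial genome took 44.0 to 51.3% of counts in KO TAC, 51.0% in KO sham replicate 1, 30.5 and 31.6% in the other KO sham libraries, 24.8 to 32.5% in WT TAC and 35.1 to 36.9% in WT sham. KO sham replicate 1 therefore enters the TAC effect in KO as a sham library that stands with the TAC libraries. Whether its label is right cannot be told from the counts, so the interaction is given with and without it, for genes and for list medians. The closest replicate pair, WT sham 1 and 2, still differed by a median of 2.16 times the Poisson variance, so none was counted as a repeat of another.

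Cd163 itself stood at 4.07, 3.68 and 3.48 CPM in KO TAC and 3.14, 4.60 and 4.50 CPM in KO sham, against 29.1, 13.7 and 29.5 CPM in WT TAC and 16.1, 15.6 and 14.02 CPM in WT sham. Every KO library was below every WT library, and in WT the TAC and sham libraries overlapped. Its interaction was −0.8 ± 0.38 (SE, adjusted p = 0.553) with 12 libraries and −0.95 ± 0.37 (SE, adjusted p = 0.107) with 11, so it was not called. With 11 libraries it passed without the filter on low counts (adjusted p = 0.00815), when scaled by library totals (0.0234) or without WT TAC 3 (0.00778). The labels do not say which part of the gene was deleted, so reads from any other part do not check the genotype. Il10, the anti-inflammatory cytokine of the study's title, had 3 counts summed over KO TAC, 2 over KO sham, 1 over WT TAC and 2 over WT sham, too few to be tested.

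With all 12 libraries no gene was called, 0% of 15804. The smallest adjusted p was 0.0545, and 1452 genes had an unadjusted p under 0.05. DESeq2 called 94 genes of the same libraries, 52 higher and 42 lower, and limma-voom with sample weights, which down-weights libraries that stand apart, called 5056. All 4 genes with the smallest p had a positive interaction: the lipid enzyme Enpp2, the alternatively activated macrophage gene Retnla, the enkephalin precursor Penk and the predicted gene Gm12183.

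Enpp2 encodes autotaxin, the secreted enzyme that makes lysophosphatidic acid, and it stood at 14.8, 10.01 and 12.6 CPM in KO TAC and 7.92, 9.08 and 8.81 CPM in KO sham, against 4.38, 4.73 and 4.74 CPM in WT TAC and 12.1, 14.8 and 10.5 CPM in WT sham. All 3 KO TAC libraries were above all 3 KO sham libraries, and all 3 WT TAC libraries were below all 3 WT sham libraries. Its interaction was 1.97 ± 0.25 (SE, adjusted p = 0.0545) with 12 libraries and 1.91 ± 0.26 (SE, adjusted p = 0.00255) with 11, where the TAC effect was 0.48 in KO and −1.44 in WT. Retnla, which encodes a secreted protein of mouse macrophages under type 2 stimulation, stood at 6.55, 6.65 and 5.31 CPM in KO TAC and 3.48, 2.14 and 1.78 CPM in KO sham, against 1.67, 1.18 and 0.926 CPM in WT TAC and 4.61, 3.72 and 4.13 CPM in WT sham. Here, too, neither genotype had an overlap between TAC and sham, and the 2 TAC effects had opposite signs. Its interaction was 3.05 ± 0.4 (SE, adjusted p = 0.0545) with 12 libraries and 3.35 ± 0.35 (SE, adjusted p = 0.000738) with 11, from a TAC effect of 1.64 in KO and −1.71 in WT. In whole heart tissue, more or fewer cells of a type and more or less RNA per cell cannot be told apart.

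Penk, the precursor of the enkephalins, stood at 6.90, 3.99 and 5.64 CPM in KO TAC and 2.59, 1.44 and 2.30 CPM in KO sham, against 3.34, 3.60 and 3.65 CPM in WT TAC and 6.78, 7.31 and 8.50 CPM in WT sham. KO TAC was above KO sham and WT TAC below WT sham with no overlap, at an interaction of 2.49 ± 0.36 (SE, adjusted p = 0.0633) with 12 libraries and 2.66 ± 0.35 (SE, adjusted p = 0.00249) with 11. Gm12183, a predicted gene of no assigned role, stood at 16.1, 17.8 and 13.6 CPM in KO TAC and 12.2, 11.5 and 10.7 CPM in KO sham, against 9.69, 9.41 and 9.75 CPM in WT TAC and 16.4, 18.5 and 17.1 CPM in WT sham. Its interaction was 1.32 ± 0.19 (SE, adjusted p = 0.0633) with 12 libraries. With 11 libraries it was 1.36 ± 0.19 (SE, adjusted p = 0.00313). All 4 genes kept their call when a further library of the 11 was left out, each in turn, with adjusted p up to 0.0274. In the 12 libraries all 4 passed in DESeq2, limma-voom and without the filter on low counts, and Enpp2 and Retnla also without the genes of the mitochondrial genome (adjusted p = 0.0461 each).

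**Figure D1:**
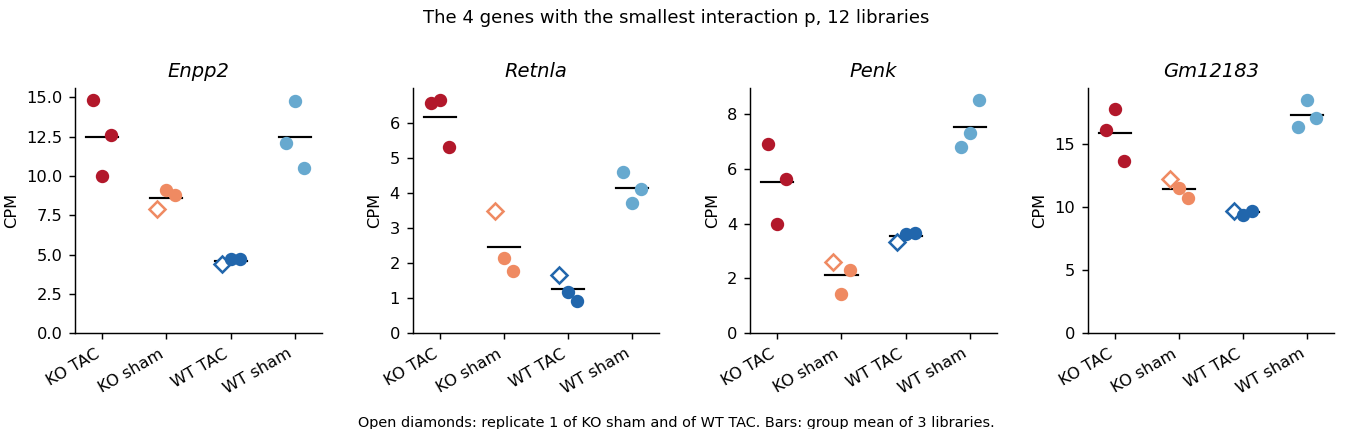
CPM of Enpp2, Retnla, Penk and Gm12183 in each library, by group, with open diamonds for KO sham replicate 1 and WT TAC replicate 1 and bars for the group means. In each of the 4 genes every KO TAC point is above every KO sham point and every WT TAC point is below every WT sham point.

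Such a crossing without overlap, counted over all 12 libraries, was found for 95 genes with KO TAC above KO sham and WT TAC below WT sham (0.601% of 15804). The reverse, KO TAC below KO sham and WT TAC above WT sham, was found for 78 genes (0.494%). Of these, 67 and 55 were also called with 11 libraries. Those with KO TAC on top included the resident macrophage genes Retnla and Timd4, the Wnt inhibitors Sfrp5 and Wif1, the fat cell gene Car3, the cartilage link protein Hapln1, the glycolytic regulator Pfkfb2 and the gelatinase Mmp9. Those with KO TAC at the bottom included the basement membrane collagens Col4a1 and Col4a2, the microfibril gene Fbn1 and the collagen cross-linking enzyme Loxl2. They also included the cardiac stress genes Uck2, Fhl1 and Nmrk2 and C1qc, a marker shared by macrophages at large.

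With KO sham replicate 1 left out, 1961 of 16196 genes were called (12.1%). The TAC effect was higher in KO than in WT for 754 of them (4.66%) and lower for 1207 (7.45%), and these are the higher and lower genes below. The TAC effect itself was called for 47.6% of genes in KO and for 6.53% in WT with the same 11 libraries. Of the 1961 genes, 1704 (86.9%) were called for TAC in KO and not in WT. On log2(CPM + 1), the left-out KO sham replicate 1 lay nearer the KO TAC mean in 1824 of the 1961 (93.0%). In the other 137 it lay nearer the mean of KO sham 2 and 3. This split was not counted over all tested genes. The library was left out because it stood with KO TAC, so the split is not particular to the called genes. The TAC effects were called in both genotypes with opposite signs for 29 of the higher and 21 of the lower genes. Among the higher genes the median TAC effect was 1.28 in KO and −0.08 in WT, and among the lower genes it was −1.16 in KO and −0.03 in WT. The median interaction over all tested genes was −0.02, against −0.07 with 12 libraries. Scaling by library totals moved that median to −0.43 and called 4348 genes, 267 higher and 4081 lower, so that 6.14% of calls were higher against 38.4% with TMM. List counts and medians with library totals, given below, are to be read beside these all-gene values.

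**Figure D2:**
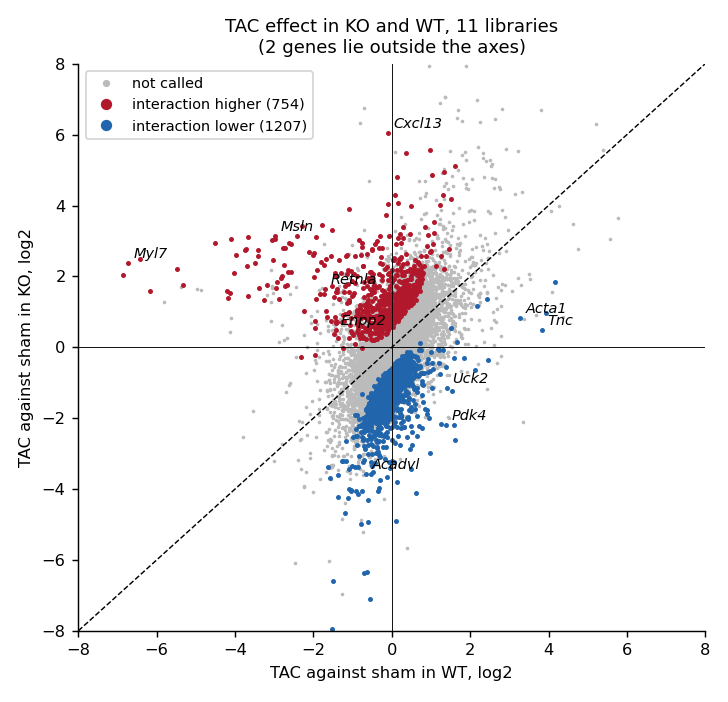
TAC effect in KO (vertical, log2) against TAC effect in WT (horizontal, log2) for each gene tested with 11 libraries, with called genes in red (754 higher) and blue (1207 lower) and 2 genes outside the axes. The dashed line marks equal effects. The called genes spread mostly along the vertical axis, with TAC effects in WT near 0.

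Of 1950 called genes that could also be tested with 12 libraries, 1945 kept their sign, 849 had an unadjusted p under 0.05, and the median ratio of the interaction with 12 libraries to that with 11 was 0.735. The KO sham arm of the 11-library result rests on 2 libraries. Without a further one, where the lone sample is assumed to vary like the other groups, the count was 286 (without KO sham 2) or 378 (without KO sham 3). It was 981, 785 or 1266 without KO TAC 1, 3 or 5, 1060, 867 or 1031 without WT sham 1, 2 or 3, and 1237 or 1306 without WT TAC 3 or 5. Without WT TAC replicate 1 it was 5774, of which 2541 were higher and 3233 lower. A test against a change of at least 2-fold called 32 genes, 18 higher and 14 lower.

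Genes singled out by size had a mean of 5 CPM in a group, a TAC effect of at least 1 in KO or WT, the same sign with 12 libraries and no provisional symbol, so a gene outside these conditions may have a larger interaction. Among the 10 lower genes of largest size under these conditions were the fuel genes Pdk4, Acadvl, Scd4 and Angptl4. Pdk4 encodes the kinase that shuts off pyruvate dehydrogenase and spares glucose, and it stood at 113, 46.2 and 107 CPM in KO TAC and 85.9, 384 and 423 CPM in KO sham, against 242, 304 and 657 CPM in WT TAC and 134, 171 and 152 CPM in WT sham. WT TAC was above WT sham in all libraries, while KO TAC lay below KO sham 2 and 3, with KO sham replicate 1 inside the KO TAC range. Its interaction was −3.59 ± 0.54 (SE, adjusted p = 0.00405), from a TAC effect of −2.19 in KO and 1.4 in WT, and −3.15 with 12 libraries (adjusted p = 0.321). Acadvl, the very-long-chain acyl-CoA dehydrogenase that starts mitochondrial fatty acid oxidation, stood at 29.2, 25.8 and 31.7 CPM in KO TAC and 27.6, 356 and 335 CPM in KO sham, against 86.8, 332 and 281 CPM in WT TAC and 378, 385 and 337 CPM in WT sham. KO sham replicate 1 was at the KO TAC level, WT TAC replicate 1 lay between that level and the rest, and all others were at 281 CPM or more. The interaction was −2.93 ± 0.51 (SE, adjusted p = 0.00697) with 11 libraries and −2.4 with 12 (adjusted p = 0.523).

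Of 30 tested genes of fatty acid uptake and oxidation, 22 were lower and 0 higher with 11 libraries (73.3%, against 12.1% of all genes), at a median of −1.21. With 12 libraries the median was −0.82, 0 were called and 6 had an unadjusted p under 0.05. With a further library left out, between 11 and 23 were lower. Besides Pdk4, those with the smallest p were the fatty acid carrier Fabp3, at −1.44 ± 0.2 (SE, adjusted p = 0.00271, −1.09 with 12 libraries), and the auxiliary oxidation enzyme Eci2, at −1.32 ± 0.19 (SE, adjusted p = 0.00288, −1.03 with 12 libraries). Fabp3 stood at 928, 869 and 871 CPM in KO TAC and 686, 1815 and 1973 CPM in KO sham, against 2770, 3162 and 2802 CPM in WT TAC and 2307, 2044 and 2510 CPM in WT sham. KO sham replicate 1 was the lowest library of all. Angptl4, a secreted inhibitor of lipoprotein lipase induced by fatty acids, had a TAC effect of −0.63 in KO and 2.13 in WT, called in WT alone, and an interaction of −2.76 ± 0.49 (SE, adjusted p = 0.0075, −2.79 with 12 libraries). The mitochondrial carrier Ucp3 had TAC effects of opposite sign (−0.74 in KO and 0.8 in WT) and an interaction of −1.54 (adjusted p = 0.0209, −1.58 with 12 libraries), lost without KO sham 2 or 3, KO TAC 3 or WT sham 2 (adjusted p up to 0.0948).

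Of 25 tested genes of the citric acid cycle and pyruvate entry, 21 were lower and 0 higher (84.0%), at a median of −1.47 with 11 libraries and −1.03 with 12. Between 9 and 23 were lower with a further library left out. Idh3b, a subunit of the NAD-dependent isocitrate dehydrogenase, stood at 116, 108 and 119.5 CPM in KO TAC and 103, 476 and 453 CPM in KO sham, against 298, 493 and 472 CPM in WT TAC and 495, 459 and 507 CPM in WT sham. KO TAC and KO sham replicate 1 stood between 103 and 119.5 CPM, the other KO sham libraries stood at 453 CPM or more, and WT TAC replicate 1 was the lowest WT library. The interaction was −1.81 ± 0.26 (SE, adjusted p = 0.00308) with 11 libraries, against −1.38 with 12. The malate dehydrogenase Mdh1 (−1.75, adjusted p = 0.00436, −1.31 with 12 libraries) and the fumarase Fh1 (−1.32, adjusted p = 0.00405, −0.95 with 12 libraries) were lower too, and these 3 kept their calls with each further library left out. Summed over the list, CPM was 5235 to 5421 in KO TAC and 4215, 15230 and 14290 in KO sham, against 9732, 14350 and 14920 in WT TAC and 15170 to 16360 in WT sham.

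Promoters of this list were read for the letters that bind GABP, a factor known to act on many mitochondrial genes, and ERR, a nuclear receptor of energy metabolism. CCGGAAG (GABP), on either strand of the window from 250 bases before to 50 after the gene start, was in 6 of 22 promoters of the list (27.3%), against 17.1% of 11326 tested genes with a promoter in the RefSeq table. It was in 3 of 26 promoters of the fatty acid list (11.5%) and 2 of 23 of the respiratory chain list below (8.70%). It was in 19.8% of promoters of lower genes and 13.1% of those of higher genes. TNAAGGTCA (ERR) was in 1 of 22 (4.55%), against 0.742% of tested genes. That motif was in 0 of 26 promoters of the fatty acid list and 1 of 23 of the respiratory chain list (4.35%). Among lower genes 1.15% of promoters held it, and among higher genes 0.994%. A promoter of each strand orientation is shown up to its gene start, 5′ to 3′ on the gene's strand, from RefSeq on GRCm38.p6, with the GABP letters in capitals. Sdhd, which encodes a membrane anchor of succinate dehydrogenase, lies on the minus strand (chr9:50603850-50604099, interaction −1.62 with 11 libraries and −1.19 with 12), and Mpc1, which encodes a subunit of the mitochondrial pyruvate carrier, on the plus strand (chr17:8283537-8283786, interaction −1.47 and −1.07).
Sdhd: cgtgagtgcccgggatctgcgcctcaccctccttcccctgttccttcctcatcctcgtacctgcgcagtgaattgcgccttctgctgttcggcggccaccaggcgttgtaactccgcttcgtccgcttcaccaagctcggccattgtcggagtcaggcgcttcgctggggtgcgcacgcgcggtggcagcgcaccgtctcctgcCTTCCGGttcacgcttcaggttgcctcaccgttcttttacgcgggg
Mpc1: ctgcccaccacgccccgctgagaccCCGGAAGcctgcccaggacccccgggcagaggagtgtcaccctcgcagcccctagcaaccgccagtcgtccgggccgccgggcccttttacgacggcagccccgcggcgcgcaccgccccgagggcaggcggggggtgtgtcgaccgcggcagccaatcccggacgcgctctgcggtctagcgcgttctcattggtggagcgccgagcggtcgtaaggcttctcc
The match starts 46 bases before the gene start in Sdhd, read on the other strand, and 225 bases before it in Mpc1. Both genes kept their call with each further library left out.

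Of 32 nuclear genes of the respiratory chain, 13 were lower and 0 higher (40.6%, median −0.59 with 11 libraries and −0.36 with 12). Without a KO TAC, WT TAC or WT sham library in turn, 9 to 17 were lower. The 17 came without WT TAC replicate 1, where 7 were higher. Uqcrc2, a core subunit of complex III, stood at 92.6, 74.6 and 89.9 CPM in KO TAC and 76.6, 631 and 593 CPM in KO sham, against 248, 552 and 579 CPM in WT TAC and 616, 594 and 574 CPM in WT sham. KO TAC and KO sham replicate 1 were under 100 CPM, WT TAC replicate 1 was at 248 CPM, and the other 7 libraries were above 500 CPM. Its interaction was −2.47 ± 0.37 (SE, adjusted p = 0.00382, −1.97 with 12 libraries), that of cytochrome c (Cycs) −1.54 (adjusted p = 0.00203, −1.18 with 12 libraries) and that of the complex I subunit Ndufb8 −1.19 (adjusted p = 0.00415, −0.87 with 12 libraries). Of 13 messenger RNAs encoded by mitochondrial DNA 9 were higher and 0 lower (69.2%), at a median of 1.47 with 11 libraries and 0.90 with 12. mt-Co2, a core subunit of cytochrome oxidase, stood at 21070, 16120 and 14400 CPM in KO TAC and 17470, 6704 and 7015 CPM in KO sham, against 8735, 9368 and 10610 CPM in WT TAC and 10890, 9056 and 12380 CPM in WT sham. Here KO sham replicate 1 lay within the KO TAC range, and KO sham 2 and 3 were the lowest libraries. The interaction was 1.49 ± 0.27 (SE, adjusted p = 0.0075, 0.9 with 12 libraries), lost without KO sham 2 (adjusted p = 0.0527), and that of the complex I subunit mt-Nd5 was 1.96 ± 0.37 (SE, adjusted p = 0.00877, 1.59 with 12 libraries), lost without KO sham 3 (0.0581). Between 1 and 10 of the 13 were called with a further library left out.

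Nuclear genes that maintain mitochondrial DNA and RNA included Tfam, the factor that packages and transcribes the mitochondrial genome, at −1.28 (adjusted p = 0.0155, −0.98 with 12 libraries), lost without KO sham 2 or 3 (adjusted p up to 0.0697). Of 16 such genes 3 were lower and 1 higher (median −0.45 with 11 libraries and −0.21 with 12), with 0 to 8 lower when a further library was left out. Of 17 genes that break down branched-chain amino acids 8 were lower and 0 higher (median −0.75 with 11 libraries and −0.43 with 12), led by Hibadh, a dehydrogenase of valine breakdown, at −1.71 (adjusted p = 0.00377, −1.31 with 12 libraries). Between 1 and 15 were lower with a further library left out. Of 18 genes of glycolysis and glucose uptake 8 were lower and 1 higher (median −0.79 with 11 libraries and −0.45 with 12), with 1 to 13 lower when a further library was left out. The 1 higher gene was Pfkfb2, the heart isoform of the enzyme that makes the activator of phosphofructokinase. It stood at 134, 175 and 169 CPM in KO TAC and 87.2, 79.8 and 101 CPM in KO sham, against 73.4, 59.8 and 66.1 CPM in WT TAC and 81.6, 82.5 and 97.8 CPM in WT sham. TAC and sham did not overlap in either genotype. The interaction was 1.21 ± 0.23 (SE, adjusted p = 0.00932, 1.23 with 12 libraries), lost without KO sham 2 (adjusted p = 0.0677) or when scaled by library totals (0.0603). Of 19 antioxidant and metallothionein genes 8 were lower and 0 higher (median −0.53 with 11 libraries and −0.47 with 12), with 0 to 11 lower when a further library was left out. Among them was the mitochondrial superoxide dismutase Sod2, at −1.19 (adjusted p = 0.00877, −0.81 with 12 libraries), lost without KO sham 2 (0.0569).

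**Figure D3:**
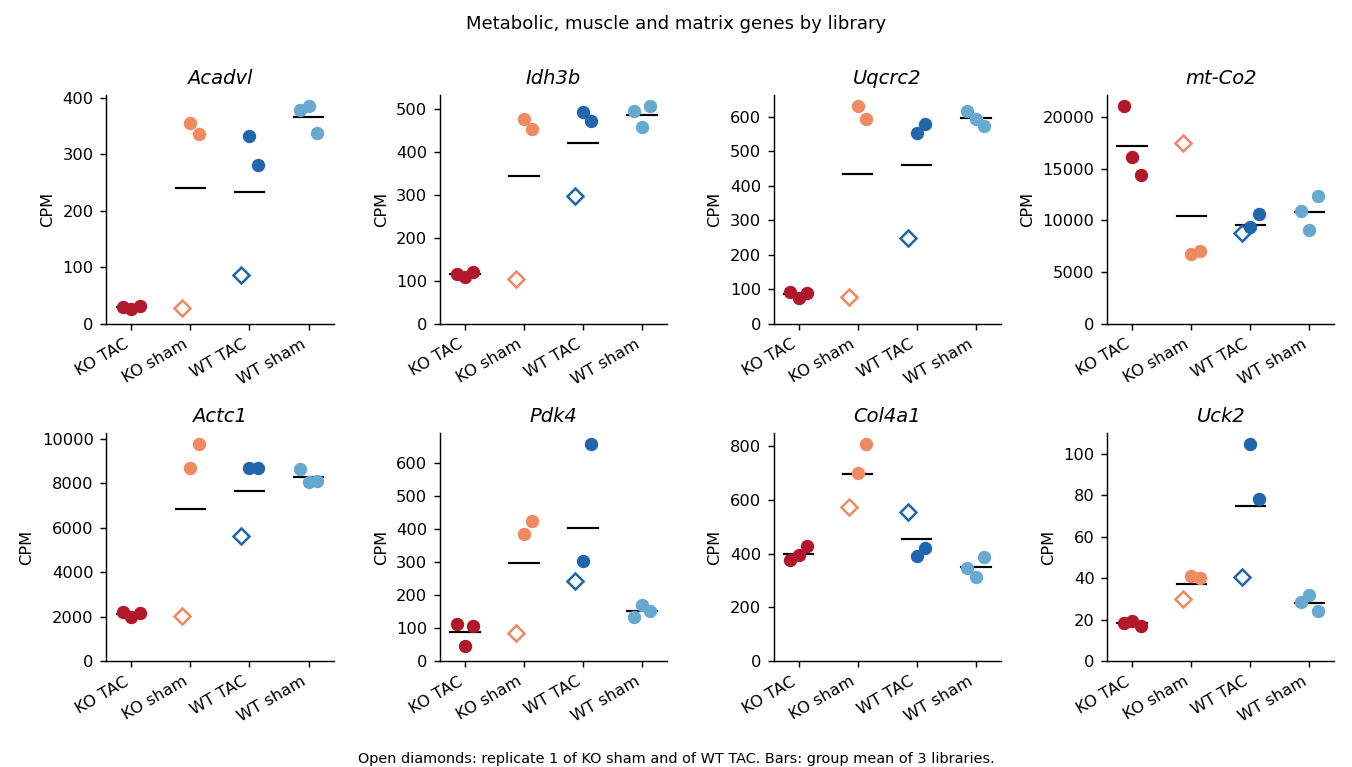
CPM by library of Acadvl, Idh3b, Uqcrc2 and mt-Co2 (fuel and mitochondrial genes), Actc1 (sarcomere), Pdk4, Col4a1 (basement membrane) and Uck2, with open diamonds for KO sham replicate 1 and WT TAC replicate 1 and bars for group means. In the upper row and in Actc1 and Pdk4 the KO sham diamond lies at the KO TAC level, while in Col4a1 and Uck2 all KO sham points are above all KO TAC points.

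Of 19 tested genes of the hypertrophic stress response 9 were lower and 2 higher with 11 libraries (57.9%), at a median of −0.97. With 12 libraries the median was −1.21, 13 members had an unadjusted p under 0.05 and 0 were called. Acta1, the skeletal actin re-used by the loaded heart, stood at 1251, 1130 and 1092 CPM in KO TAC and 1389, 509.6 and 803 CPM in KO sham, against 1451, 1256 and 2557 CPM in WT TAC and 226, 203 and 117 CPM in WT sham. WT TAC was above WT sham by a TAC effect of 3.27, while in KO the sham libraries already stood at 509.6 CPM or more and KO sham replicate 1 was above all KO TAC libraries. The interaction was −2.46 ± 0.43 (SE, adjusted p = 0.00697) with 11 libraries and −2.91 ± 0.55 (SE, adjusted p = 0.162) with 12. Uck2, a uridine-cytidine kinase, stood at 18.4, 19.2 and 17.2 CPM in KO TAC and 30.1, 41.0 and 40.0 CPM in KO sham, against 40.7, 105 and 78.3 CPM in WT TAC and 28.8, 31.9 and 24.0 CPM in WT sham. TAC and sham did not overlap in either genotype. Its TAC effect was −1.15 in KO and 1.4 in WT, at an interaction of −2.56 ± 0.38 (SE, adjusted p = 0.00377, −2.42 with 12 libraries).

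The natriuretic peptide Nppb had a TAC effect of −0.07 in KO and 1.21 in WT and an interaction of −1.28 (adjusted p = 0.0108, −1.48 with 12 libraries), lost without KO sham 2 or 3 (adjusted p up to 0.0585). The titin-binding stress gene Ankrd1 had 0.14 in KO and 1.66 in WT and an interaction of −1.52 (adjusted p = 0.0322, −1.79 with 12 libraries), which held in 2 of 11 leave-outs, those of WT TAC replicate 1 and WT sham replicate 2, with adjusted p up to 0.125 in the others. Nmrk2, a nicotinamide riboside kinase, was at −1.26 (adjusted p = 0.0193, −1.21 with 12 libraries), lost without KO sham 2 or 3 (0.0886). Fhl1, a LIM protein of muscle, was at −1.66 (adjusted p = 0.0323, −1.64 with 12 libraries) and held only without WT TAC replicate 1, with adjusted p up to 0.126 in the others. Myh7, the slow myosin of the fetal mouse heart, was 1 of the 2 higher members, at 1.1 (adjusted p = 0.0308, 0.94 with 12 libraries). It rose in KO (0.94) and not in WT (−0.16, adjusted p = 0.621), and its call ended without KO sham 2 or 3, KO TAC 1 or 3, or WT sham 1 or 2 (0.134) and when scaled by library totals (0.113). When scaled by library totals the list's split was 13 lower and 1 higher, where 4081 of all 16196 genes were lower and 267 higher. Without WT TAC replicate 1 the split was 13 lower and 2 higher. Leaving out any other KO TAC, WT TAC or WT sham library in turn gave 5 or 6 lower. These counts do not cover KO sham 2 or 3, whose removal leaves a lone KO sham library. There the list's median was −0.93 or −0.86. With a further library left out the list's median ran from −1.315 to −0.864.

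Of 20 sarcomere genes 5 were lower and 0 higher (median −0.42 with 11 libraries and −0.30 with 12), with 2 to 9 lower when a further library was left out. Actc1, the cardiac actin, stood at 2236, 2009 and 2187 CPM in KO TAC and 2041, 8706 and 9792 CPM in KO sham, against 5647, 8679 and 8686 CPM in WT TAC and 8670, 8079 and 8106 CPM in WT sham. KO sham replicate 1 was at the KO TAC level. The interaction was −2.0 ± 0.25 (SE, adjusted p = 0.00203, −1.56 with 12 libraries). Myoz2, whose Z-disc protein binds calcineurin, was at −1.44 (adjusted p = 0.00179, −1.14 with 12 libraries). Of 22 genes of calcium handling and ion channels 5 were lower and 1 higher (median −0.64 with 11 libraries and −0.40 with 12). It was 15 lower without WT TAC replicate 1 or with library totals, and 1 to 3 lower when another library was left out. They were led by Pln, the phospholamban gene that brakes the calcium pump of the sarcoplasmic reticulum, at −1.62 ± 0.24 (SE, adjusted p = 0.00382, −1.18 with 12 libraries). The sodium channel subunit Scn4b, of no list, was at −2.57 (adjusted p = 0.0232, −2.12 with 12 libraries), lost without KO sham 2 or 3, KO TAC 3 or WT TAC 5 (adjusted p up to 0.0974). The muscle creatine kinase Ckm was at −2.29 (adjusted p = 0.00382, −1.79 with 12 libraries). The small heat shock protein of muscle Hspb7 was at −1.45 (adjusted p = 0.0075, −1.18 with 12 libraries), lost without KO sham 2 (adjusted p = 0.0522), with TAC effects of −0.71 in KO and 0.74 in WT.

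Of 20 tested collagen and basement membrane genes 8 were lower and 0 higher (40.0%), at a median of −0.74 with 11 libraries and −0.71 with 12, where 9 had an unadjusted p under 0.05. Without a KO TAC, WT TAC or WT sham library in turn, 3 to 11 were lower and 0 or 1 higher. Col4a1, a chain of the main basement membrane collagen, stood at 376, 396 and 429 CPM in KO TAC and 574, 702 and 809.5 CPM in KO sham, against 555, 389.7 and 422 CPM in WT TAC and 346, 314 and 387 CPM in WT sham. All KO TAC libraries were below all KO sham libraries, KO sham replicate 1 included, and all WT TAC libraries were above all WT sham libraries. Its interaction was −1.3 ± 0.24 (SE, adjusted p = 0.00769) with 11 libraries and −1.18 ± 0.28 (SE, adjusted p = 0.308) with 12, and that of its partner chain Col4a2 was −1.15 with 11 (adjusted p = 0.00771) and −1.05 with 12. Both held with each further library left out. Fbn1, the fibrillin of microfibrils, was at −0.75 (adjusted p = 0.0491, −0.94 with 12 libraries) and held in 3 of 11 leave-outs, with adjusted p up to 0.161.

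The fibrillar collagen Col3a1 was at −1.47 (adjusted p = 0.04, −1.44 with 12 libraries) and held in 1 of 11 leave-outs, that of WT TAC replicate 3 (up to 0.13 in the others), while Col1a1 was at −1.12 (adjusted p = 0.0592, −1.09 with 12 libraries), not called, and passed in DESeq2 (0.0330). In Col4a1, Col4a2, Fbn1, Col1a1 and Col3a1 KO sham replicate 1 was above every KO TAC library. Of 26 matricellular and remodelling genes 5 were lower and 1 higher, at a median of −0.33 with 11 libraries and −0.76 with 12. Without WT TAC replicate 5 the median was 0.12, with 4 higher and 3 lower, and with library totals 10 were lower and 1 higher. Tnc, an adhesion-modulating glycoprotein of injured tissue, stood at 3.45, 2.90 and 3.999 CPM in KO TAC and 6.28, 2.38 and 2.58 CPM in KO sham, against 4.77, 18.7 and 16.6 CPM in WT TAC and 0.794, 0.999 and 0.994 CPM in WT sham. WT TAC was above WT sham in every library, by 3.83, while the KO libraries stayed between 2.38 and 6.28 CPM, with KO sham replicate 1 the highest. The interaction was −3.35 ± 0.63 (SE, adjusted p = 0.00877) with 11 libraries and −3.92 ± 0.71 (SE, adjusted p = 0.137) with 12. Loxl2 stood at 20.4, 16.8 and 18.3 CPM in KO TAC and 24.2, 24.9 and 31.0 CPM in KO sham, against 25.6, 22.9 and 37.4 CPM in WT TAC and 15.5, 12.5 and 13.4 CPM in WT sham. Neither genotype had an overlap between TAC and sham, and the interaction was −1.65 ± 0.27 (SE, adjusted p = 0.00489, −1.58 with 12 libraries). The small proteoglycan decorin, Dcn, was the higher member at 0.97 (adjusted p = 0.0231, 0.7 with 12 libraries), lost without KO sham 2 or 3, KO TAC 1 or 3 or WT sham 2 (adjusted p up to 0.115) and when scaled by library totals (0.0626).

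Of 19 tested markers of resident macrophages 5 were higher and 0 lower with 11 libraries (26.3%), at a median of 0.39, and 0.14 with 12 libraries. Scaled by library totals the median was −0.02, against −0.43 for all genes, and the split was 4 higher and 4 lower. The 5 were Retnla, the C-type lectin Cd209f, the apoptotic cell receptor Timd4, the complement receptor Vsig4 and the transcription factor Maf. Cd209f stood at 1.10, 0.391 and 0.787 CPM in KO TAC and 0.546, 0.123 and 0 CPM in KO sham, against 0.147, 0.269 and 0.218 CPM in WT TAC and 0.953, 1.23 and 0.994 CPM in WT sham. It was low in all libraries, with KO TAC above KO sham 2 and 3 and WT TAC below WT sham. Its interaction was 5.73 ± 0.9 (SE, adjusted p = 0.00436, 4.24 with 12 libraries), but KO sham 2 and 3 held only 3 and 0 counts, so its size is uncertain. Timd4 stood at 2.83, 3.29 and 3.48 CPM in KO TAC and 1.98, 1.85 and 1.55 CPM in KO sham, against 1.28, 1.67 and 0.817 CPM in WT TAC and 1.96, 2.27 and 2.24 CPM in WT sham. Its interaction was 1.68 ± 0.39 (SE, adjusted p = 0.0193, 1.61 with 12 libraries), lost without KO sham 2 or 3 (adjusted p up to 0.0922). Vsig4 was at 2.25 (adjusted p = 0.0204, 1.24 with 12 libraries), lost without KO sham 2 or 3 or WT sham 3 (0.105).

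Of 20 markers shared by macrophages at large 1 was higher and 0 lower, a share of 5%, at a median of −0.46 with 11 libraries and −0.49 with 12. It was 0 higher and 8 lower with library totals (267 and 4081 of all 16196 genes) and 2 higher and 7 lower in limma-voom (2420 and 2991). Without WT TAC replicate 1 it was 2 higher and 5 lower (2541 and 3233 of all 16007 genes). That 1 was Aif1, a calcium-binding protein of macrophages, at 1.38 (adjusted p = 0.0332, 0.74 with 12 libraries), which held in 3 of 11 leave-outs (adjusted p up to 0.146) and not with library totals (0.0948). Summed over these markers CPM was 382 to 387 in KO TAC and 374 to 414 in KO sham, against 315 to 511 in WT TAC and 282 to 328 in WT sham. Of 23 chemokines and cytokines 3 were higher and 1 lower (17.4%, against 12.1% of all genes), at a median of 0.47 with 11 libraries and 0.11 with 12. With library totals the median was 0.048, against −0.43 for all genes, with 2 higher and 1 lower. Cxcl13, the chemokine that draws B cells, stood at 2.48, 2.03 and 1.18 CPM in KO TAC and 0.205, 0 and 0.0469 CPM in KO sham, against 0.147, 0.161 and 0.0544 CPM in WT TAC and 0.106, 0.182 and 0.0994 CPM in WT sham. Its interaction was 6.14 ± 1.16 (SE, adjusted p = 0.00893, 4.74 with 12 libraries), lost without KO sham 2 (adjusted p = 0.0522). KO TAC stood at 1.18 CPM or more and every other library at 0.205 CPM or less, and KO sham 2 and 3 held 0 and 1 counts, so that the size of the interaction is uncertain. Mmp9, a gelatinase carried by neutrophils, was at 3.23 (adjusted p = 0.00583, 2.64 with 12 libraries).

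Of 28 interferon-stimulated genes 0 were called with 11 libraries, at a median of −0.38, and 4 had an unadjusted p under 0.05 with 12, where the median was −0.65. Without WT TAC replicate 1 the median was 0.11, with 4 higher and 1 lower. It was −0.67 without WT TAC replicate 3, with 4 lower. With library totals 3 were lower, where 4081 of all 16196 genes were lower. Ifi44, an interferon-induced gene, was at −1.41 (adjusted p = 0.0757, −1.43 with 12 libraries) and passed in DESeq2 (0.0467), limma-voom (0.0137), without the filter on low counts (2.29e-05), when scaled by library totals (0.0313) and without WT TAC 1 (0.0470) or 3 (0.0307). The lists of the interleukin 10 axis (13 tested), MHC class II (8), TGF-beta signalling (18) and the cell cycle (22) gave 0 calls. Their medians were −0.12, 0.34, 0.20 and −0.87. Scaled by library totals, those of MHC class II and TGF-beta were −0.07 and −0.21, against −0.43 for all genes. With 12 libraries the 4 medians were −0.13, 0.45, 0.11 and −1.02, and 1, 0, 2 and 7 members had an unadjusted p under 0.05. Library totals gave 4, 0, 5 and 5 lower, with no member of these lists higher. At that setting 4081 of all 16196 genes were lower. With WT TAC replicate 3 left out, 8 cell cycle genes were lower and 1 higher. Of 20 genes of haem and iron handling 3 were lower and 2 higher (median −0.24 with 11 libraries and −0.23 with 12), against 10 lower and 2 higher with library totals. Alas1, the rate-limiting enzyme of haem synthesis outside red cells, stood at 32.3, 33.2 and 37.3 CPM in KO TAC and 36.2, 159 and 168 CPM in KO sham, against 106, 162 and 97.95 CPM in WT TAC and 166, 153 and 139.7 CPM in WT sham. KO sham replicate 1 was at the KO TAC level. Its interaction was −1.93 ± 0.26 (SE, adjusted p = 0.00255, −1.5 with 12 libraries). The constitutive haem oxygenase Hmox2 was at −1.52 (adjusted p = 0.00541, −1.17 with 12 libraries). Hp, which encodes haptoglobin, the plasma protein whose complex with haemoglobin CD163 binds, was at 3.76 (adjusted p = 0.0154, 2.17 with 12 libraries), lost without KO sham 2 or 3 (adjusted p up to 0.0742).

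Of 18 clock genes 3 were higher and 0 lower (16.7%, against 12.1% of all genes), at a median of −0.15 with 11 libraries and −0.0071 with 12. It was 2 higher and 2 lower with library totals, and without WT TAC replicate 5 the median was 0.02. Without a KO TAC, WT TAC or WT sham library in turn, 2 to 4 were higher. Without WT TAC replicate 1, 3 were lower as well. The clock output Per3 stood at 80.9, 75.6 and 62.7 CPM in KO TAC and 43.3, 11.8 and 9.46 CPM in KO sham, against 34.3, 32.4 and 36.5 CPM in WT TAC and 11.5, 11.8 and 14.1 CPM in WT sham. TAC was above sham in both genotypes, by 2.77 in KO and 1.47 in WT, and KO sham replicate 1 lay between the other KO sham libraries and KO TAC. The interaction was 1.31 ± 0.21 (SE, adjusted p = 0.00489) with 11 libraries and 0.31 with 12 (adjusted p = 0.88). Its sign turned to −0.043 when KO sham 3 alone was left out of the 12. The repressor Nr1d2 was at 1.32 (adjusted p = 0.00853, 0.38 with 12 libraries), lost without KO sham 2 or 3 (up to 0.0556). The hour of collection is not stated in the labels.

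Of 28 ribosomal protein genes 7 were higher and 1 lower (28.6%), at a median of 0.41, and 0.16 with 12 libraries. Scaled by library totals the median was −0.01, against −0.43 for all genes. With library totals 1 was higher and 2 lower, and with a further library left out 1 to 15 were higher. Rps27 was at 1.36 (adjusted p = 0.0028, 0.66 with 12 libraries) and Rps2 at −0.99 (adjusted p = 0.0102, −0.74 with 12 libraries), lost without KO sham 2 or 3 (0.0562). The pseudogenes Rps2-ps6 (−3.34, adjusted p = 0.0012, −2.94 with 12 libraries), Mpc1-ps (−2.6, adjusted p = 0.00763, −2.09 with 12 libraries) and Apoo-ps (−3.41, adjusted p = 0.00541, −2.96 with 12 libraries) were among the same 10 lower genes, but they can share reads with Rps2, Mpc1 and the apolipoprotein O gene, so their values are uncertain. Ier2, an immediate early gene, was at 2.2 (adjusted p = 0.0472, 1.07 with 12 libraries) and held in 3 of 11 leave-outs (up to 0.172), and its adjusted p was 0.0512 without the genes of the mitochondrial genome and 0.071 with library totals. Neat1, the nuclear RNA of paraspeckles, was at 1.7 (adjusted p = 0.0132, 0.52 with 12 libraries), lost without KO sham 2 (0.0853). Also of these 10, Scd4, a fatty acid desaturase, was at −2.78 (adjusted p = 0.0165, −2.68 with 12 libraries), lost without KO sham 2 or KO TAC 3 (0.0974), and Schip1, an adaptor protein gene, was at −2.7 (adjusted p = 0.0381, −2.2 with 12 libraries), which held only without WT TAC replicate 1 (0.145).

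**Figure D4:**
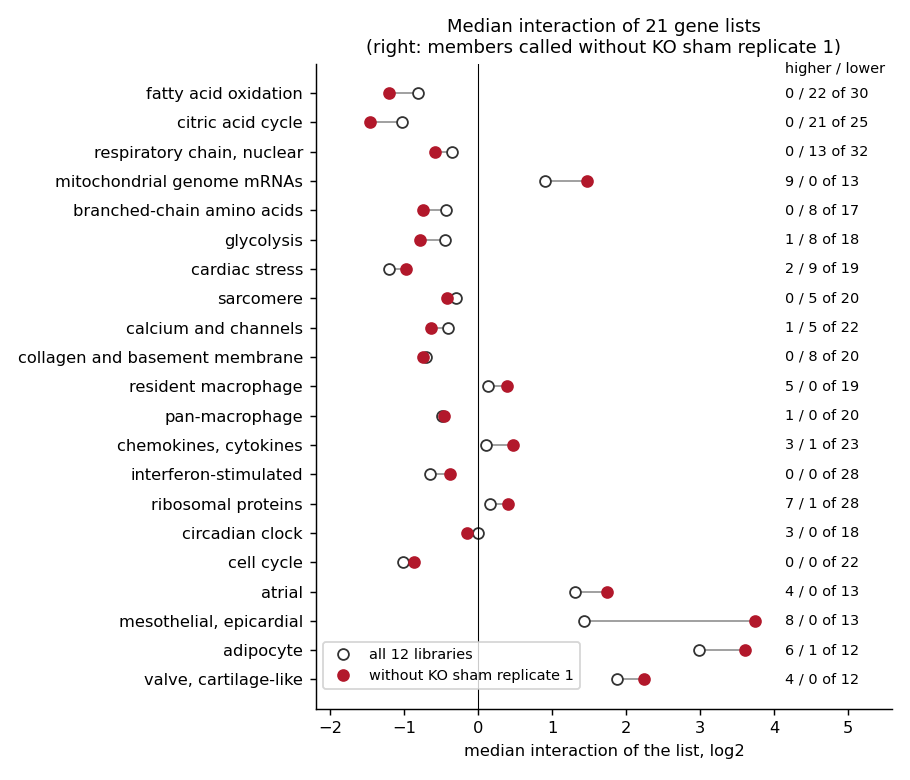
Median interaction (log2) of 21 gene lists with all 12 libraries (open) and without KO sham replicate 1 (filled), with the number of members called higher and lower of those tested with 11 libraries on the right. The citric acid cycle (−1.47) and fatty acid oxidation (−1.21) lists have the most negative filled points, and the mesothelial (3.75) and adipocyte (3.61) lists the most positive. With a filter at a mean of 1 CPM, not drawn, the mesothelial and adipocyte medians were 0.83 and 0.26.

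The 10 higher genes of largest size under the same conditions were the atrial muscle genes Myl7, Sln and Myl4, the mesothelial genes Upk3b and Msln, the fat cell gene Cfd, the cartilage-like matrix gene Cilp2, the Wnt inhibitor Sfrp5, the relaxin receptor Rxfp1 and the iron hormone Hamp. Myl7, the atrial myosin light chain, stood at 646, 136 and 400.2 CPM in KO TAC and 817, 86.5 and 64.9 CPM in KO sham, against 0.442, 3.06 and 0.381 CPM in WT TAC and 8.999, 375 and 27.8 CPM in WT sham. The levels ran between 0.381 and 817 CPM, WT TAC was the lowest group in all its libraries, and KO TAC overlapped KO sham through replicate 1. Its interaction was 9.11 ± 2.22 (SE, adjusted p = 0.0324) with 11 libraries and 7.02 ± 2.03 (SE, adjusted p = 0.418) with 12, and it held in 4 of 11 leave-outs (adjusted p up to 0.163). Sln (8.92, adjusted p = 0.0363, 6.66 with 12 libraries) and Myl4 (7.7, adjusted p = 0.0364, 5.84 with 12 libraries) held in the same number, Cilp2 (7.09, adjusted p = 0.0366, 5.31 with 12 libraries) in 4 and Rxfp1 (6.11, adjusted p = 0.0413, 4.45 with 12 libraries) in 3, with adjusted p up to 0.170 in the others. All 5 lost their call without KO sham 2 or 3, WT TAC 1, 3 or 5 or KO TAC 1. In limma-voom none of the 5 passed, with adjusted p from 0.126 to 0.284.

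Msln, the mesothelin of the heart's outer lining, stood at 2.76, 5.48 and 4.98 CPM in KO TAC and 16.8, 0 and 1.03 CPM in KO sham, against 0.147, 0.269 and 0.544 CPM in WT TAC and 3.02, 4.45 and 0.0497 CPM in WT sham. Libraries of 1 group differed widely, with KO sham at 0 to 16.8 CPM and WT sham at 0.0497 to 4.45 CPM. Its interaction was 6.1 ± 1.63 (SE, adjusted p = 0.0365, 2.57 with 12 libraries) and held in 2 of 11 leave-outs, those of KO TAC 1 and WT sham 3 (up to 0.131 in the others). Upk3b was at 7.17 (adjusted p = 0.0219, 4.11 with 12 libraries), lost without KO sham 2 or 3 or WT TAC 3 (0.102), and the membrane glycoprotein gene Gpm6a, also of the mesothelial list, at 2.7 (adjusted p = 0.00404, 1.39 with 12 libraries) with no loss. Over the list of 13 mesothelial and epicardial markers 8 were higher and 0 lower (61.5%), at a median of 3.75 with 11 libraries and 1.43 with 12. With a further library left out the median ran from 2.86 to 5.85. Without a KO TAC, WT TAC or WT sham library in turn, 3 to 8 members were higher. With a further library left out, the smallest median came from a fit with a lone KO sham library. With a filter at a mean of 1 CPM the median was 0.83, with 3 of 7 tested members higher. The list's summed level was 50.3 to 63.7 CPM in KO TAC and 21.1 to 126 CPM in KO sham, against 20.3 to 24.9 CPM in WT TAC and 19.6 to 48.7 CPM in WT sham.

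Of 13 atrial markers 4 were higher and 0 lower (30.8%), at a median of 1.74 with 11 libraries and 1.31 with 12, and their summed level was 845 to 2662 CPM in KO TAC and 380 to 3271 CPM in KO sham, against 345 to 631 CPM in WT TAC and 165 to 1955 CPM in WT sham. Of 12 fat cell markers 6 were higher and 1 lower (58.3%), at a median of 3.61 with 11 libraries and 2.98 with 12. They summed to 1129 to 1284 CPM in KO TAC and 583 to 1354 CPM in KO sham, against 874 to 1643 CPM in WT TAC and 467 to 706 CPM in WT sham. In WT the sum was thus higher after TAC, while the list's median TAC effect there was −1.79 with 11 libraries. A sum follows the members of highest level, and the member Fabp4 is also in the list of endothelial markers. With a further library left out the atrial median ran from 0.95 to 2.61 and the fat median from 1.57 to 4.06. The calls held less well. Without a KO TAC, WT TAC or WT sham library in turn, 0 to 5 atrial members were higher, the 0 without WT TAC replicate 5. For the fat list 2 to 6 were higher, the 2 without WT sham replicate 2. With a filter at a mean of 1 CPM the fat median was 0.26, with 3 of 8 tested members higher and 1 lower. Cfd, the adipsin gene, was at 5.53 (adjusted p = 0.00771, 3.62 with 12 libraries), lost without KO sham 2 (0.0527), and Car3, a carbonic anhydrase of fat and muscle, at 4.8 (adjusted p = 0.00999, 4.19 with 12 libraries), lost without KO sham 2 or 3 (0.0578). The 1 lower member was Cidea, a lipid droplet gene, at −0.92 (adjusted p = 0.00786, −0.72 with 12 libraries), lost without KO sham 3 (0.0502). Of 12 valve and cartilage-like matrix genes 4 were higher and 0 lower (median 2.24 with 11 libraries and 1.88 with 12). Hapln1 stood at 5.65, 3.75 and 2.03 CPM in KO TAC and 0.751, 0.616 and 0.281 CPM in KO sham, against 0, 0.107 and 0.0544 CPM in WT TAC and 0.529, 0.681 and 0.149 CPM in WT sham. Again TAC and sham did not overlap in either genotype, and the interaction was 6.01 ± 1.06 (SE, adjusted p = 0.00721, 5.77 with 12 libraries). WT TAC held 0, 2 and 1 counts of it, so that size is uncertain. No member of these 4 lists was at 0 in every library. Their part in the other results was not tested.

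Sfrp5 stood at 12.6, 3.36 and 8.20 CPM in KO TAC and 1.57, 1.60 and 0.75 CPM in KO sham, against 0.344, 0.323 and 0.381 CPM in WT TAC and 1.06, 7.54 and 2.69 CPM in WT sham. TAC and sham did not overlap in either genotype, with KO sham replicate 1 at the level of the other KO sham libraries. Its interaction was 6.17 ± 1.08 (SE, adjusted p = 0.00781) with 11 libraries and 6.04 ± 0.99 (SE, adjusted p = 0.121) with 12, and the call was lost without KO sham 3 (adjusted p = 0.051). Hamp, the hepcidin gene, which the atria of the mouse heart also express, was at 5.97 (adjusted p = 0.0182, 4.81 with 12 libraries), lost without KO sham 2 or 3 or WT sham 2 (0.106). WT TAC held 1, 1 and 0 counts of it, so its size is uncertain. Of 18 fibroblast markers 4 were higher and 0 lower (22.2%, against 12.1% of all genes), against 2 higher and 3 lower with library totals. Their median was −0.004 with 11 libraries, with 9 members positive and 9 negative, and −0.09 with 12. Among the 4 higher markers was Wif1, another secreted Wnt inhibitor. Wif1 stood at 10.9, 7.82 and 6.88 CPM in KO TAC and 3.62, 3.62 and 3.05 CPM in KO sham, against 0.393, 1.72 and 1.31 CPM in WT TAC and 5.45, 5.08 and 2.44 CPM in WT sham. Again neither genotype had an overlap, and the interaction was 3.28 ± 0.6 (SE, adjusted p = 0.00782, 3.24 with 12 libraries), which held with each further library left out.

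**Figure D5:**
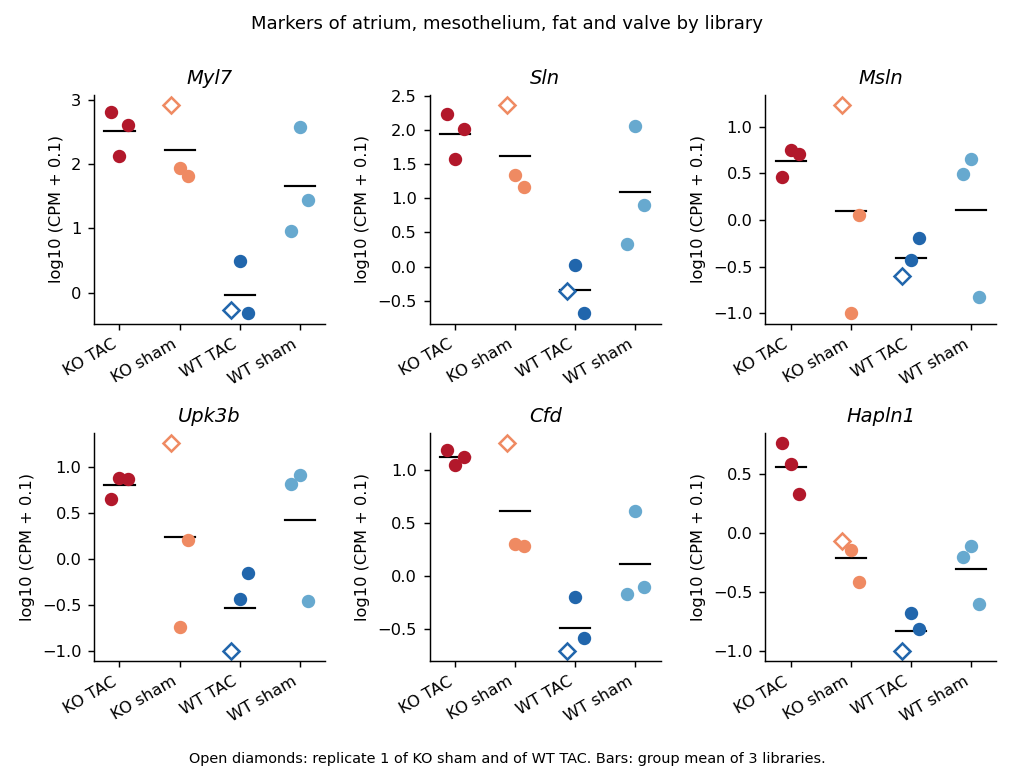
Level on log10(CPM + 0.1) by library of the atrial genes Myl7 and Sln, the mesothelial genes Msln and Upk3b, the fat cell gene Cfd and the cartilage-like gene Hapln1, with open diamonds for KO sham replicate 1 and WT TAC replicate 1 and bars for means of these log values. Libraries of the same group differ by more than 1 unit in several sham groups, and in Hapln1 all KO TAC points are above all others.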

How the data were processed

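Counts came from poly(A) RNA of 12 mouse hearts, sequenced with an ABclonal mRNA kit in paired 150 bp reads (MGISEQ-T7), per the labels' protocols. HISAT2 is the aligner in the submitters' processing notes. The counting program, strand setting, genome build and annotation are not stated in the labels or the file, so overlapping and antisense genes cannot be told apart. The authors deposited whole-number counts per gene, not normalized, with 14150109 to 22602225 counts per library. Of 55357 identifiers, 52081 took a symbol from a GENCODE mouse annotation, and 23267 had no count.

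edgeR 4.0.16 in R 4.3.3 gave every adjusted p unless another tool is named: TMM scaling, filterByExpr by group, a robust quasi-likelihood fit with 1 coefficient per group and Benjamini-Hochberg adjustment, called under 0.05. The fits had 8 residual degrees of freedom with 12 libraries and 7 with 11, at a common biological coefficient of variation of 0.242 and 0.175. Each SE is the size of the log2 value divided by the square root of the quasi-likelihood F. It was not estimated apart from the test, so it restates the test. The code was tested on simulated counts. The labels do not name the animal of each library, so a p-value here reflects only how much these samples varied, which may be technical. The 11-library fit enters no value for KO sham replicate 1.

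The members and all 46 gene lists were chosen with earlier results of these data known. The rule for named genes takes Cd163 and Il10; the 4 genes of smallest p with 12 libraries; with 11 libraries the 10 called genes per direction of largest interaction, with a mean of 5 CPM in a group, a TAC effect of at least 1 in KO or WT, the same sign with 12 libraries and no provisional symbol; the 6 per direction with opposed TAC effects whose smaller one is largest; and the 3 members of each described list with the smallest p, some of which are left out, and 1 gene is not reported here. Names outside it, chosen after their values were seen, are Nppb, Ankrd1, Myh7, Nmrk2, Fhl1, Fbn1, Col1a1, Col3a1, Vsig4, Hp, Sdhd and Mpc1, and genes named without values.

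Alternatives were DESeq2 size factors, library totals, counts without mitochondrial genes, DESeq2 1.42.0, limma-voom 3.58.1, a fit that was not robust, 2 other filters, a minimum change, a replicate block and each library left out. Promoters were matched by symbol to RefSeq on GRCm38.p6.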

Additional observations from a re-analysis of the deposited data

Results flagged for a closer look

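Each result here was marked because its TAC effect differed between KO and WT in the test of that difference, with KO sham replicate 1 left out. By this test 1961 genes passed. With all 12 libraries 0 passed in edgeR and 1452 had an unadjusted p under 0.05, while DESeq2 called 94 and limma-voom 5056. All groups have 3 libraries, too few for the search for single stray samples. Values are interactions on the log2 scale, the KO effect of TAC less the WT one, and the calls they lose when a library is left out stand in the report.

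Of the 4 genes that had the smallest p with 12 libraries, the values were 1.91 for Enpp2, 3.35 for Retnla, 2.66 for Penk and 1.36 for Gm12183. Values for atrial markers were 9.11 for Myl7, 8.92 for Sln and 7.7 for Myl4. The mesothelial markers had 7.17 for Upk3b, 6.1 for Msln and 2.7 for Gpm6a. Of the fat cell markers, the values were 5.53 for Cfd, 4.8 for Car3 and −0.92 for Cidea. Values for secreted Wnt inhibitors were 6.17 for Sfrp5 and 3.28 for Wif1. The matrix genes had −1.3 for Col4a1, −1.15 for Col4a2, −1.47 for Col3a1, −0.75 for Fbn1, −1.65 for Loxl2, −3.35 for Tnc, 0.97 for Dcn, 7.09 for Cilp2 and 6.01 for Hapln1. Of the genes of fatty acid use, the values were −3.59 for Pdk4, −2.93 for Acadvl, −1.44 for Fabp3, −1.32 for Eci2, −2.78 for Scd4, −2.76 for Angptl4 and −1.54 for Ucp3. Values for citric acid cycle and pyruvate genes were −1.81 for Idh3b, −1.75 for Mdh1, −1.32 for Fh1, −1.62 for Sdhd and −1.47 for Mpc1. The nuclear genes of mitochondria had −1.54 for Cycs, −2.47 for Uqcrc2, −1.19 for Ndufb8, −1.28 for Tfam, −1.71 for Hibadh and −1.19 for Sod2. Of the mitochondrial DNA transcripts, the values were 1.49 for mt-Co2 and 1.96 for mt-Nd5. Values for cardiac stress genes were −2.46 for Acta1, −2.56 for Uck2, −1.28 for Nppb, −1.52 for Ankrd1, 1.1 for Myh7, −1.26 for Nmrk2, −1.66 for Fhl1 and 5.97 for Hamp. The muscle and channel genes had −2.0 for Actc1, −1.44 for Myoz2, −2.29 for Ckm, −1.62 for Pln, −2.57 for Scn4b and −1.45 for Hspb7. Of the macrophage genes besides Retnla, the values were 5.73 for Cd209f, 1.68 for Timd4, 2.25 for Vsig4 and 1.38 for Aif1. Values for genes of haem handling were −1.93 for Alas1, −1.52 for Hmox2 and 3.76 for Hp. The ribosomal protein genes had 1.36 for Rps27 and −0.99 for Rps2. Of the pseudogenes, whose reads may come from their parent genes, the values were −3.41 for Apoo-ps, −3.34 for Rps2-ps6 and −2.6 for Mpc1-ps. Values for clock genes were 1.31 for Per3 and 1.32 for Nr1d2. Other called genes were Rxfp1 at 6.11, Schip1 at −2.7, Pfkfb2 at 1.21, Cxcl13 at 6.14, Mmp9 at 3.23, Ier2 at 2.2 and Neat1 at 1.7.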

How the results depend on the processing

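With 12 libraries the count of genes called was 0 under DESeq2 size factors, a fit that was not robust, a filter at 1 CPM, a minimum change of 2-fold and the replicate block. It was 7 with library totals, 2 without the mitochondrial genes, 43 without the filter on low counts, 94 in DESeq2 and 5056 in limma-voom. Leaving out each library gave 0 to 1961, the highest without KO sham replicate 1, and 4 without WT TAC replicate 1. With KO sham replicate 1 left out, 1961 became 4348 with library totals, 5411 in limma-voom, 3198 without the filter and 32 at a minimum change of 2-fold, and it was 1907 to 2613 under the other 5 scalings, fits and filters. It was 286 to 5774 with a further library left out, and 5774 with WT TAC replicate 1 left out as well, of which 1941 were shared. The cause of these differences was not tested.

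The replicate block left 293 calls, 290 of them shared, with 0 of the 13 mitochondrial mRNAs and 1 of the 13 mesothelial markers among them. Libraries of the same number deviated from their group means with correlations of −0.19 to 0.62, so the numbers were not taken to pair the samples. Of the named genes, Per3 with 12 libraries ran from −0.043 without KO sham replicate 3 to 1.31 without KO sham replicate 1, and it was the 1 value to change sign. With 11 libraries 687 values of named genes under other settings kept their side of the threshold, 118 lost their call, 74 of them at the minimum change of 2-fold and 29 under the block, and 10 gained one. These tallies do not include the leave-outs. Each leave-out of a KO TAC, WT TAC or WT sham library lost 7 to 13 calls of named genes and gained at most 3. Depth limits genes at a few counts per library, such as Cxcl13, Hamp and Il10.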
